A study of Mus musculus with 5 samples.

Results

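The mitochondrial genome of the mouse is a small circle that carries the genes of 2 ribosomal RNAs, 22 transfer RNAs and 13 proteins. All 13 proteins are subunits of the respiratory chain and the ATP synthase, and the RNAs serve the ribosome that makes them inside the organelle. Both strands are copied from the control region as long precursors, which are cut apart mostly at the tRNAs between the other genes. The heavy-strand precursor, named here by the genes it carries, gives both rRNAs and most mRNAs and tRNAs. The light-strand precursor gives mt-Nd6 and the remaining tRNAs. Germinal center B cells divide fast, and the respiratory chain is among their known sources of energy.

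These transcripts were taken from a table of splenic germinal center B cells as all genes whose name begins with MT-, which gave 37 of 38924 genes. The cells were eGFP+ and were sorted from 12-week-old mice on day 7 after immunization with sheep red blood cells. The libraries labelled WT (n = 3) came from Cg1-Cre mice, and those labelled DKO (n = 2) from littermates with relbfl/fl and nfkb2fl/fl alleles and Cg1-Cre. All 5 libraries therefore carried the Cre, which becomes active once the IgG1 constant region gene is transcribed, and the comparison asks which transcripts differ when the genes of RelB and NF-κB2 are targeted in these B cells. Nothing in the labels says whether libraries of a genotype came from separate mice, so p-values measure only the spread between these libraries. Values are normalized counts, that is reads divided by a scaling factor per library.

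Library totals ran from 33.95 to 57.58 M reads, and 15.4 to 17.7 M reads lay outside the mitochondrial genome. Relb, the first targeted gene, stood at 136, 171 and 117 normalized counts in the WT libraries against 56.9 and 10.7 in the DKO libraries. Nfkb2, the other, stood at 657, 601 and 445 in the WT libraries against 298 and 73.5 in the DKO libraries. Both were lower in DKO without overlap and did not pass (limma adjusted p = 0.823 for each), and DKO replicate 1 kept more of both transcripts than DKO replicate 2. All 11 germinal center B cell markers used, Bcl6 among them, had reads in every library, and their summed level was 105886.5 to 126295 in WT and 104274 to 109778 in DKO. WT replicate 2 and DKO replicate 1 held the most transcripts of naive B cells (5 genes, summed level 15108 and 13137, against 3814 to 7301 in the other libraries) and of NK cells (6 genes, 348 and 104, against 2.88 to 26.4; none of the 6 was at 0 in these 2 libraries, and 1 to 5 were in the others). T cell markers apart from Lck (7 genes) summed to 754 and 396 in the same 2 libraries, against 31.7 to 78.5 in the others. Lck, which carries most of the T cell list's sum, was at 1027, 789 and 814 in the WT libraries against 450 and 438 in the DKO libraries. Plasma cell markers (5 genes) summed to 8454 to 11327 in the WT libraries against 6837 and 7915 in the DKO libraries, and erythroid markers (4 of 5 genes in the table) to 15.5 to 18.2 and to 102 and 29.7. Myeloid markers (6 genes) summed to 154 to 1123 and to 1169 and 480. The part of these other cells in the results was not tested.

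A part of the mitochondrial genome left almost no reads in this table. Of the 13 mRNA genes, 7 had between 8433 and 873970 normalized counts in every library, and the other 6 had between 7.88 and 166. These 6, mt-Co2, mt-Atp8, mt-Atp6, mt-Co3, mt-Nd3 and mt-Nd4l, follow each other in the genome with only tRNA genes between them. In each library they held at most 0.0280% of the mitochondrial mRNA reads. Of the 3 tRNA genes within this stretch, mt-Tk and mt-Tg were listed at 0 in all 5 libraries and mt-Tr kept 24.5 to 52.0 normalized counts. mt-Td, just before mt-Co2, was also listed at 0. Low tRNA values were not limited to this stretch, as mt-Tw, outside it, was at 0 to 5.25. The mean of mt-Tr, 38.8, lay above the median of 16.8 over the heavy-strand tRNA genes.

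The same stretch is the one with near-perfect copies among the annotated nuclear transcripts. Such copies, inserts of mitochondrial DNA in nuclear chromosomes, can make it impossible to place a short read. Each mitochondrial gene in the GENCODE M21 transcripts (GRCm38) was divided into all its windows of 50 bases, the length of a sequenced read, and each window was looked up on both strands in all other transcripts. An exact copy was found for 100% of the windows of mt-Co2, 99.5% of mt-Atp6, 99.9% of mt-Co3, 98.0% of mt-Nd3 and 98.8% of mt-Nd4l. It was found for 62.2% of the windows of mt-Nd4 and 51.1% of mt-Co1, the genes on either side. In the other 6 mRNA genes, mt-Nd1, mt-Nd2, mt-Nd5, mt-Nd6, mt-Cytb and mt-Atp8, the share was between 0% and 8.19%. mt-Atp8 is the exception to the pattern, with 12.4 to 18.3 normalized counts in WT, 7.88 and 12.4 in DKO, and no copied window among the annotated transcripts. It lies between mt-Co2 and mt-Atp6. No tRNA gene had a copied window among the annotated transcripts either. Nuclear DNA outside these transcripts was not searched, so copies of mt-Atp8 or of tRNA genes there would have been missed. Reads were sequenced in pairs, and the search took each window alone, without the place of a mate.

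The copies that are over 99% identical were 7 unprocessed pseudogenes, all on chromosome 1 in the order of the mitochondrial genes. They covered 4137 aligned bases with 1 mismatch. Of these 7, only Gm10222, the copy of mt-Nd4l, has a row in the deposited table, at 4.81 to 12.8 normalized counts in the WT libraries against 3.50 and 12.4 in the DKO libraries. Less similar copies were listed at uneven levels, and whether their reads came from the copies or from the mitochondrial genes was not tested. Gm13339, 96.7% identical to mt-Nd2, was at 0 to 5.78 over all libraries, and Gm11407, 92.6% identical to mt-Nd5, at 1.07 to 7.69. Gm13340, 97.6% identical to mt-Co1, was listed at 278 to 363 in the WT libraries against 205 and 257 in the DKO libraries, and Gm13341, 97.6% identical to mt-Co2, at 103 to 146 in the WT libraries against 85.8 and 111 in the DKO libraries. How reads with more than 1 possible origin were counted is not given in the sources used here, and its part in the low values was not tested. The levels of these 6 mRNAs are therefore given as listed and not as expression.

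The start of mt-Co2, which encodes the copper-binding subunit 2 of cytochrome c oxidase, is shown as an example of a copied stretch. The first 60 bases are shown for the gene and its copies, with capitals at the bases where Gm13341 differs (C25T and G57A, counted from the first base of the gene, the gene's base first).
mt-Co2: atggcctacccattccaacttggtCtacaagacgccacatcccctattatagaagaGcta
Gm28661: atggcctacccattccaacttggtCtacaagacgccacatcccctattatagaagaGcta
Gm13341: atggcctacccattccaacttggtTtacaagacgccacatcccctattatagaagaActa
The first pair are identical letter by letter, and stay so over all 681 aligned bases. In mt-Nd4, a core subunit of complex I, the match to Gm28439 covers the first 876 bases and then stops. The stretch around that point is shown to mark where that copy ends, with the bases beyond the copy in capitals.
mt-Nd4: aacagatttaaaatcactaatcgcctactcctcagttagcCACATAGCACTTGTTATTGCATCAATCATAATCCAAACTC
Gm28439: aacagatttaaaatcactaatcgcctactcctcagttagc

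**Figure D1:**
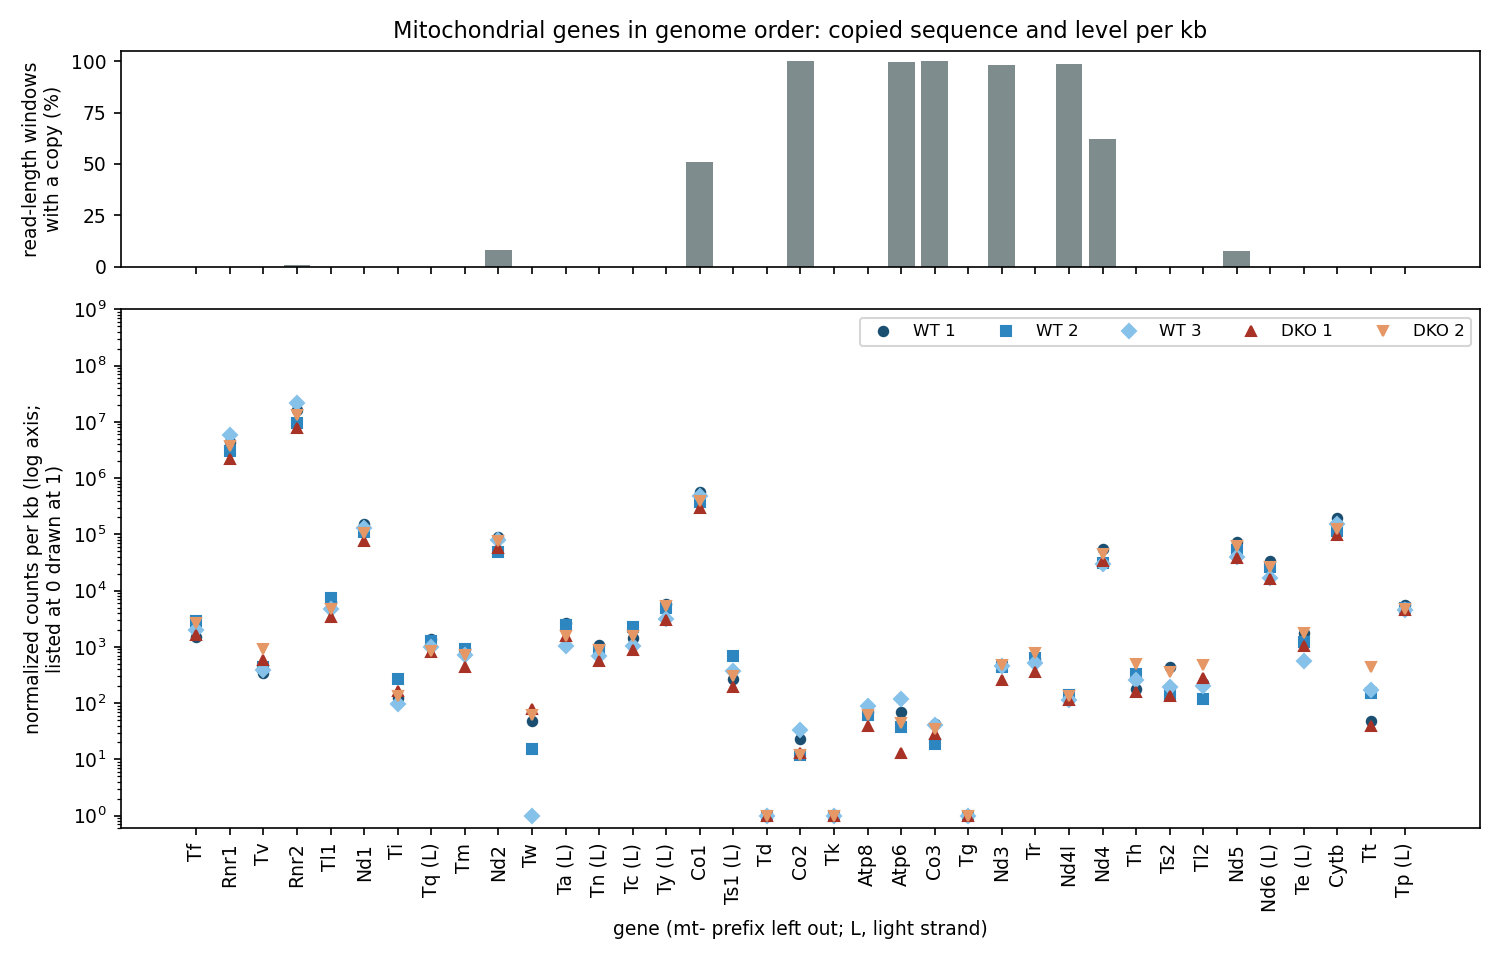
The 37 mitochondrial genes in genome order: the upper panel gives the share of 50-base windows with an exact copy in another transcript (%), the lower panel the normalized counts per kb in each library on a log axis, with genes listed at 0 drawn at 1. The mRNA genes from mt-Co2 to mt-Nd4l sit far below mt-Co1 and mt-Nd4 on either side in all 5 libraries. Over this stretch the upper panel reaches 98.0% to 100% for mt-Co2, mt-Atp6, mt-Co3, mt-Nd3 and mt-Nd4l. The tRNA genes sit below mt-Co1 and mt-Nd4 all along the genome.

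The 2 rRNAs dominated every library. mt-Rnr2, the 16S rRNA of the large subunit of the mitochondrial ribosome, was at 25.7, 15.2 and 33.6 M normalized counts in the WT libraries against 12.4 and 20.6 M in the DKO libraries, and ranked first of all genes in all 5 libraries. mt-Rnr1, the 12S rRNA of the small subunit, was at 4.26, 2.86 and 5.60 M in the WT libraries against 2.10 and 3.55 M in the DKO libraries, and ranked second in all 5. For both genes WT replicate 3 was highest and DKO replicate 1 lowest, and the genotypes overlapped because WT replicate 2 lay below DKO replicate 2. The log2 fold change of DKO over WT, on the log2(value + 1) scale used throughout, was −0.58 ± 0.96 (SE) for mt-Rnr1 and −0.57 ± 1.89 for mt-Rnr2 (limma adjusted p = 0.938 and 0.969). The large errors come with the fitted trend of spread on level at the top of the range. Without that trend, a setting added after seeing the data, they were 0.404 and 0.440 and the adjusted p was 0.875 and 0.893.

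The rRNA took 62.4%, 51.6% and 70.9% of all reads in the WT libraries against 47.0% and 60.6% in the DKO libraries. The 95% Wilson intervals of these shares, which cover counting error only, are at most 0.034 percentage points wide, so the gaps between libraries are far above counting error. The group means were 61.6% ± 9.67 (SD, n = 3) and 53.8% ± 9.64 (SD, n = 2), a difference of −7.81 points that is smaller than the spread within either genotype (exact permutation p = 0.4, two-sided). Leaving out a library moved that difference to −0.995 points without DKO replicate 1, −14.6 without DKO replicate 2, −3.19 without WT replicate 3 and −12.8 without WT replicate 2. With 10 ways to divide 5 libraries into 3 and 2, no p below 0.1 can be reached for this or any other share. The lowest rRNA shares were in WT replicate 2 and DKO replicate 1, the libraries with most naive B cell, NK cell and T cell transcripts other than Lck, and the part of those cells in the shares was not tested. In bulk RNA a change in the number of mitochondrial transcripts per cell cannot be told apart from a change in the mix of cells. Nor can it be told apart from differences between libraries in amplification and preparation, whose part was not tested.

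The 2 rRNAs kept a nearly steady ratio while their levels differed widely between libraries. mt-Rnr2 had 6.05, 5.31 and 6.00 times the reads of mt-Rnr1 in the WT libraries against 5.89 and 5.81 times in the DKO libraries. The log2 ratio differed by 0.02 between genotypes (exact permutation p = 1.0). Per kb of gene, the mean level was 13.6 M for mt-Rnr2 and 3.85 M for mt-Rnr1. Both lie next to each other on the heavy-strand precursor, with only mt-Tv between them.

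The mRNAs were a small part of the mitochondrial reads. They made up 4.96%, 5.29% and 3.07% of reads in mitochondrial genes in the WT libraries against 5.31% and 4.46% in the DKO libraries, the rest being rRNA except for 0.00368% to 0.0116% from tRNAs. WT replicate 3, with the most rRNA, had the lowest mRNA share, and its rRNA reads were 31.5 times its mRNA reads against 17.8 to 21.4 times in the other libraries. Among reads outside mitochondrial rRNA, the mRNAs held 8.67%, 5.95% and 7.72% in the WT libraries against 4.98% and 7.19% in the DKO libraries. The means were 7.45% ± 1.38 (SD, n = 3) and 6.08% ± 1.56 (SD, n = 2), a difference of −1.36 points that is smaller than the spread (exact permutation p = 0.4). It was −0.259 without DKO replicate 1, −2.47 without DKO replicate 2, −0.751 without WT replicate 1 and −2.11 without WT replicate 2. DKO replicate 1 was the lowest and WT replicate 2 the second lowest, again the libraries with the most naive B cell transcripts.

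**Figure D2:**
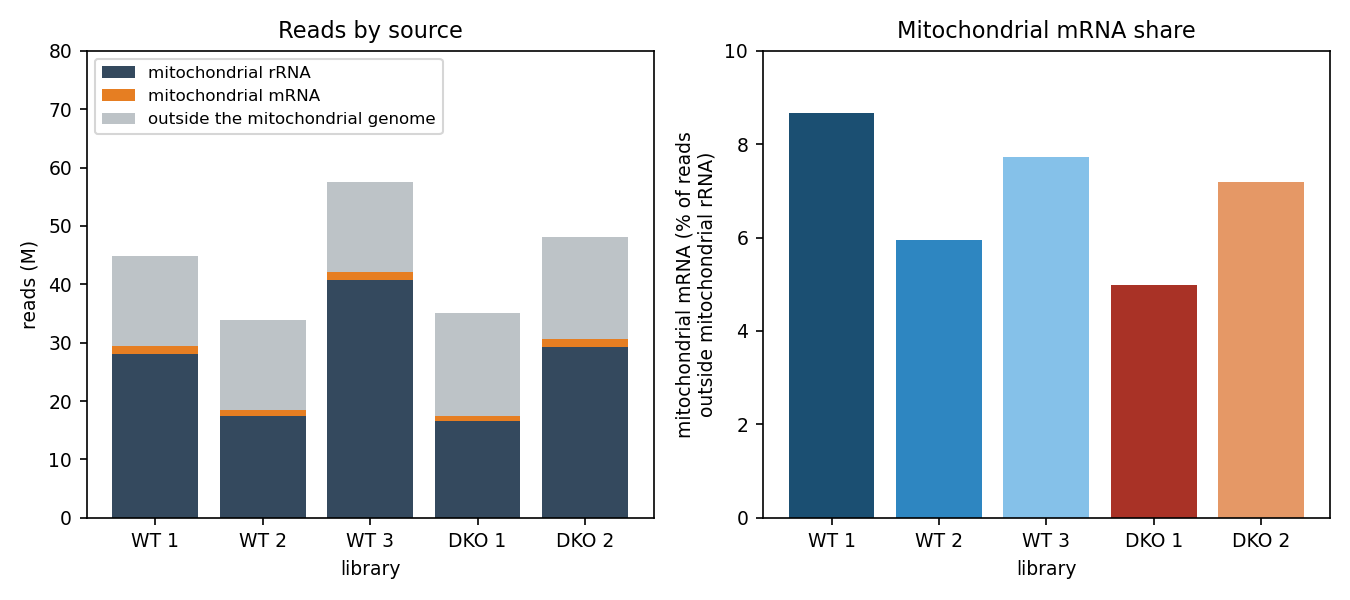
Left, reads of each library (M) from mitochondrial rRNA, mitochondrial mRNA and genes outside the mitochondrial genome; right, mitochondrial mRNA as a percentage of reads outside mitochondrial rRNA. The rRNA bar changes with the library total while the reads outside the mitochondrial genome stay between 15.4 and 17.7 M, and the mRNA share is lowest in DKO replicate 1 at 4.98% and highest in WT replicate 1 at 8.67%.

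Complex IV was represented by mt-Co1, its catalytic subunit 1 and the most abundant mRNA of the organelle here. It was at 873970, 570239 and 740977 normalized counts in the WT libraries against 446221 and 610538 in the DKO libraries, and ranked 3 or 4 among all genes in every library. The highest values were in WT replicates 1 and 3, and the groups overlapped at WT replicate 2 and DKO replicate 2. Its log2 fold change was −0.46 ± 0.52 (limma adjusted p = 0.913). mt-Co2 and mt-Co3, the other complex IV subunits, lie in the stretch with nuclear copies, at 8.25 to 23.1 and 14.4 to 33.2 normalized counts over all libraries.

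Complex III has a single mitochondrial subunit, mt-Cytb, the cytochrome b of its catalytic core. It was at 224679, 133773 and 171693 in the WT libraries against 111205 and 145353 in the DKO libraries, the second highest mRNA level per kb in each library. DKO replicate 2 lay between WT replicates 2 and 3, and the log2 fold change was −0.44 ± 0.37 (limma adjusted p = 0.881).

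Complex I takes 7 of the 13 mitochondrial proteins. mt-Nd1, a membrane subunit near the ubiquinone site, was at 147378, 103857 and 125043 in the WT libraries against 71562 and 101790 in the DKO libraries. It was the only mRNA whose genotypes did not overlap, by a margin between WT replicate 2 and DKO replicate 2 that is small beside the spread. Its log2 fold change was −0.54 ± 0.33 (limma adjusted p = 0.871), and over all genes tested 11.0% had DKO values below all WT values in the same way. mt-Nd2, a proton-pumping subunit, was at 92699, 49518 and 82653 in the WT libraries against 59087 and 80058 in the DKO libraries, with WT replicate 2 lowest and DKO replicate 2 close to WT replicate 3. Its log2 fold change was −0.07 ± 0.35.

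The complex I mRNAs at the far end of the heavy strand were lowest, among WT libraries, in WT replicate 3. mt-Nd4 was at 75153, 43030 and 41299 in the WT libraries against 45475 and 61633 in the DKO libraries. mt-Nd5, a further pumping subunit, was at 133106, 94597 and 73149 in the WT libraries against 69692 and 112577 in the DKO libraries. In both genes the DKO values lay within or close to the WT range, with log2 fold changes of 0.05 ± 0.34 and −0.14 ± 0.37. mt-Nd6, the protein gene of the light strand, was at 17707, 13605 and 8693 in the WT libraries against 8433 and 13448 in the DKO libraries, the lowest level of these 7 mRNAs (−0.26 ± 0.33). mt-Nd6 lies opposite the heavy-strand precursor, and the use of strand in counting is not given, so its reads cannot be told apart from reads of the opposite strand. mt-Nd3 was at 89.3 to 166 and mt-Nd4l at 33.3 to 41.3 over all libraries, both within the copied stretch.

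The ATP synthase subunits mt-Atp6 and mt-Atp8 were listed at 8.76 to 81.7 and 7.88 to 18.3 normalized counts. mt-Atp6 had the most negative log2 fold change among all 33 tested mitochondrial genes, −1.44 ± 0.73, with 48.2, 25.8 and 81.7 in the WT libraries against 8.76 and 30.6 in the DKO libraries. The genotypes overlapped, it did not pass (limma adjusted p = 0.854), and nearly all its windows have a copy. Without DKO replicate 1 the value was −0.60, less negative than the −0.75 of mt-Co2, and without DKO replicate 2 it was −2.29.

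Per kb of gene, the 7 mRNAs with high counts followed the order mt-Co1, mt-Cytb, mt-Nd1, mt-Nd2, mt-Nd5, mt-Nd4 and mt-Nd6 in 4 of 5 libraries, and in WT replicate 2 mt-Nd5 came before mt-Nd2. Mean levels per kb fell from 419669 for mt-Co1 through 137535, 114865, 70138, 52974 and 38692 to 23848 for mt-Nd6. Across libraries every pair of neighbours in this order overlapped in range except mt-Co1 and mt-Cytb, so that the order holds within a library and not between libraries. The next values again take each window alone, without a mate. If copied windows had given no reads to a gene, which was not tested, the place of mt-Nd4 would be higher. Per 1000 windows without a copy, its level was 106211, above the 80179 of mt-Nd2 and the 58917 of mt-Nd5 and close to the 121064 of mt-Nd1, while mt-Co1 stayed highest at 886989.

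The make-up of the mRNA pool differed between libraries in a way that the levels alone do not show. Among reads in the 7 mRNAs with high counts, mt-Nd4 held 4.80%, 4.27% and 3.32% in the WT libraries against 5.60% and 5.48% in the DKO libraries. mt-Nd2 held 5.92%, 4.91% and 6.65% in the WT libraries against 7.28% and 7.11% in the DKO libraries. In both genes the 2 DKO libraries lay close together and above all WT libraries.

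For mt-Nd1 and mt-Co1 the shares were lower in DKO. mt-Nd1 held 9.42%, 10.3% and 10.1% in the WT libraries against 8.82% and 9.05% in the DKO libraries, and mt-Co1 held 55.9%, 56.5% and 59.6% in the WT libraries against 55.0% and 54.2% in the DKO libraries. Each of these 4 genes had an exact permutation p = 0.2 (adjusted p = 0.35 over the 7 genes), so none passed, and shares of a common total are not independent of each other. The levels of 11.0% of all genes tested lay lower in DKO without overlap and those of 12.5% higher. Those are levels and not shares of a common total, so the measures are unlike. On levels, only mt-Nd1 of the 7 genes did not overlap. Of 8 ratios to mt-Nd1 in the same library, 4 were higher in DKO without overlap, those of mt-Nd2, mt-Nd4, mt-Nd5 and mt-Co1. The common divisor mt-Nd1 was itself lower in DKO without overlap, which raises every ratio to it in DKO. This count is therefore no separate result, and no share over all genes was computed for such ratios. Over the 8 ratios the exact permutation p ran from 0.1 for mt-Nd2 to 1.0 for mt-Rnr1, and none passed (smallest adjusted p = 0.6).

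mt-Nd5 and mt-Nd6 set WT replicate 3 apart in the same measure. mt-Nd5 held 5.88% there against 8.51% and 9.38% in the other WT libraries and 8.59% and 10.0% in DKO. mt-Nd6 held 0.699% there, below the 1.13% and 1.35% of the other WT libraries and the 1.04% and 1.2% of DKO. mt-Cytb, which lies beyond both in the genome, held 13.8% there, within the 12.9% to 14.4% of the other libraries. WT replicate 3 also had the highest rRNA share, and the link between the measures was not tested.

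**Figure D3:**
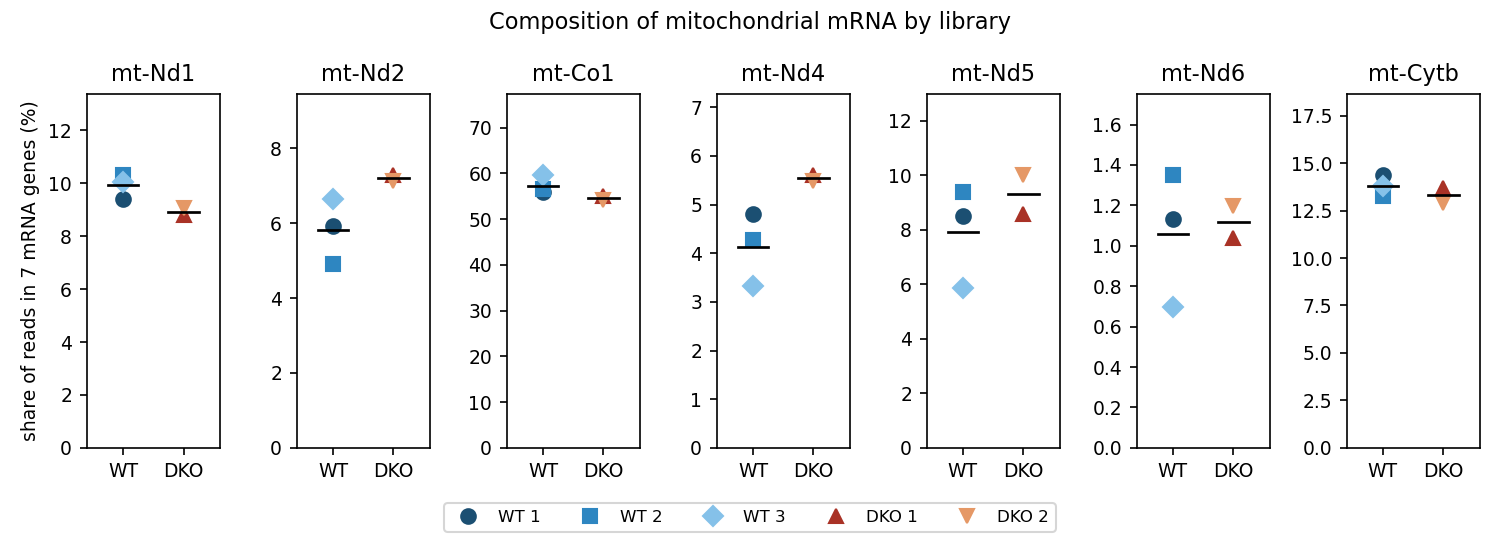
Share of each of 7 mRNA genes in their summed reads (%), by genotype, with a symbol for each library and a black line at the group mean; each panel has its own axis from 0. The DKO libraries lie above all WT libraries for mt-Nd2 and mt-Nd4 and below them for mt-Nd1 and mt-Co1, and WT replicate 3 is lowest for mt-Nd4, mt-Nd5 and mt-Nd6.

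The 22 tRNA genes together had 1548 to 2388 reads in a library, between 0.00846% and 0.0131% of the reads outside mitochondrial rRNA. For every tRNA read there were 738, 455 and 836 mRNA reads in the WT libraries against 588 and 571 in the DKO libraries. The genes are 59 to 75 bases long, close to the read length of 50 bases. How reads that reach into a neighbouring gene were counted is not given in the sources used here. Levels of tRNA genes therefore cannot be read as amounts of mature tRNA.

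The tRNA genes the results turn on are shown with the anticodon in capitals, written as DNA. The first 3 had the highest mean levels, the next 3 were tested genes whose genotypes did not overlap, and the last 3 were listed at 0.
mt-Tl1: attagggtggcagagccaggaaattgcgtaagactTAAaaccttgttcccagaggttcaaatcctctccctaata
mt-Tp: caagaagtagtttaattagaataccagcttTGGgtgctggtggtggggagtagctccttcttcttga
mt-Ty: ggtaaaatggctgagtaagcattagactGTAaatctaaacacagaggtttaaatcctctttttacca
mt-Tv: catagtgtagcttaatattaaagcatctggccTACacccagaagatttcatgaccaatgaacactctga
mt-Tl2: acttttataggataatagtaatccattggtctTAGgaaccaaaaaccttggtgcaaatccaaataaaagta
mt-Tq: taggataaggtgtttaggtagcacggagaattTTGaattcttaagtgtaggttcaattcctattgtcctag
mt-Td: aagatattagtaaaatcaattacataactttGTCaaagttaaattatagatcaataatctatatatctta
mt-Tk: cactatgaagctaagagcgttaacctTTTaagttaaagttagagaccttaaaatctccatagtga
mt-Tg: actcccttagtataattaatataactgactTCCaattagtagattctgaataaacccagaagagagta

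mt-Tl1, which reads UUR leucine codons and sits between mt-Rnr2 and mt-Nd1, had the most reads of the tRNA genes, with 473, 552 and 351 normalized counts in the WT libraries against 260 and 357 in the DKO libraries. mt-Tp, for proline, was the steadiest of the well-covered ones, at 379, 330 and 300 in the WT libraries against 309 and 311 in the DKO libraries. mt-Ty, for tyrosine, was at 380, 333 and 208 in the WT libraries against 201 and 352 in the DKO libraries. WT and DKO overlapped in all 3, as they did in mt-Tf (102, 197 and 134 against 109 and 179), mt-Ta (183, 167 and 71.1 against 109.5 and 109) and mt-Tc (96.4, 152 and 67.3 against 57.8 and 104). The smallest p of any mitochondrial gene was that of mt-Tl1, with a log2 fold change of −0.56 ± 0.28 (limma adjusted p = 0.854).

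Genotypes did not overlap in 3 of the 18 tested tRNA genes, 1 lower and 2 higher in DKO, where 11.0% of all genes tested were lower and 12.5% higher in this way. mt-Tv, the valine tRNA between the rRNAs, was at 23.6, 29.9 and 26.9 in the WT libraries against 40.3 and 64.4 in the DKO libraries (0.91 ± 0.52, limma adjusted p = 0.871). mt-Tl2, which reads CUN leucine codons, was at 16.1, 8.25 and 14.4 in the WT libraries against 20.1 and 33.9 in the DKO libraries (1.01 ± 0.73). mt-Tq, the glutamine tRNA, was at 97.4, 90.8 and 72.1 in the WT libraries against 57.8 and 59.5 in the DKO libraries (−0.55 ± 0.38). None passed the test. Values of mt-Tl2 rest on few reads, and the 3 genes at 0 allow at most 2.48 to 3.21 normalized counts in a library, the worth of 3 reads (for counting error only).

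tRNA genes on the light strand had the higher typical level. The mean value of the 8 light-strand genes ran from 25.1 to 326 normalized counts with a median of 91.2, and that of the 14 heavy-strand genes from 0 to 399 with a median of 16.8. Light-strand genes held 55.9% to 63.7% of tRNA reads in the WT libraries against 57.7% and 62.2% in the DKO libraries, with overlapping genotypes. Of all mRNA and tRNA reads, light-strand genes held 1.22%, 1.47% and 0.765% in the WT libraries against 1.14% and 1.29% in the DKO libraries (exact permutation p = 0.9). As for mt-Nd6, reads from the opposite precursor cannot be told apart here.

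No mitochondrial gene passed in the comparison of genotypes. Of the 37 genes, 33 had a mean of at least 10 normalized counts and were tested. mt-Td, mt-Tk, mt-Tg and mt-Tw (0 to 5.25) were not. In limma 0 of 33 passed an adjusted p of 0.05, where 0.0% of all 13242 genes did, and 0 of 33 had an unadjusted p under 0.05, where 6.06% of all genes did. EdgeR on the recovered reads called 0.0% of all genes and DESeq2 0.219%, and neither called a mitochondrial gene.

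Fold changes of the 33 genes were below 0 in 25 and above 0 in 8, with a median of −0.25 (log2) against 0.00 for all genes tested, of which 50.0% were below 0. By class, both rRNAs, 11 of 13 mRNAs and 12 of 18 tested tRNAs were lower. Of the 6 mRNAs given as listed and not as expression 5 were lower, and of the 7 with high counts 6 were. This direction rests on DKO replicate 1: without that library 15 of 33 were lower and the median was 0.06. Scaled to all reads, the medians of the mitochondrial genes and of all genes both moved up, to 0.12 and 0.37, so that relative to all genes the mitochondrial ones lay about as much lower. Without both WT replicate 2 and DKO replicate 1 the median was 0.04. Without DKO replicate 2 it was −0.62 with 30 of 33 lower, and without WT replicate 1 it was −0.14. The 33 values move together within a library and are not independent.

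**Figure D4:**
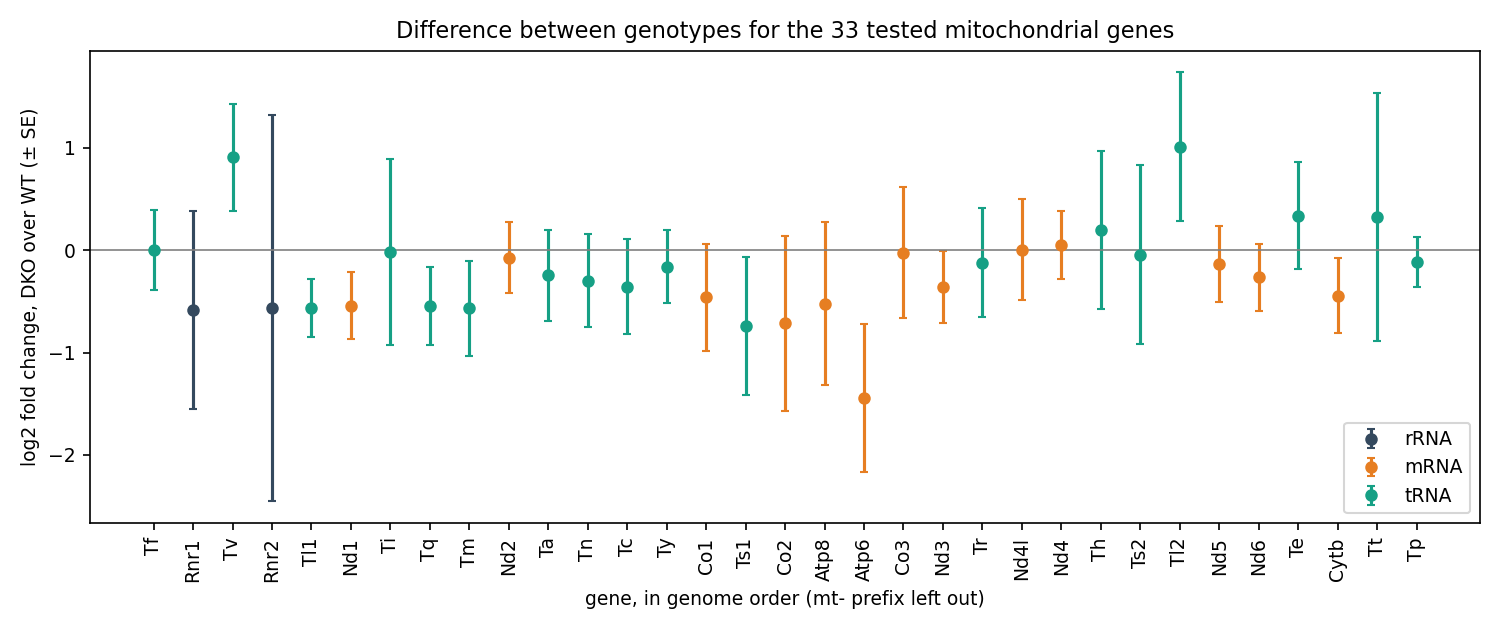
Log2 fold change of DKO over WT with its SE for the 33 tested mitochondrial genes in genome order, coloured by class; the grey line marks 0. Most points lie below 0, and the values run from −1.44 for mt-Atp6 to 1.01 for mt-Tl2. The error of mt-Rnr2 is the widest at 1.89, followed by that of mt-Tt at 1.21.

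The nuclear genes that serve mitochondrial DNA and its transcripts did not pass the test either. Of 87 such genes in 7 lists 85 were in the table and tested, 48 above 0 and 37 below 0, with a median log2 fold change of 0.04. Among them 0 passed, and 3 had an unadjusted p under 0.05, a share below the 6.06% of all genes.

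Transcription genes were higher in 4 and lower in 3 of 7. Tfam, which packs the mitochondrial DNA and starts transcription, averaged 788 ± 194 (SD) in WT and 610 ± 14.4 in DKO (−0.34 ± 0.25). Mterf3, a negative regulator of mitochondrial transcription, averaged 707 ± 173 and 814 ± 115, and Mterf1a, a termination factor, 115 ± 19.0 and 140 ± 26.8.

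Replication genes were higher in 5 and lower in 6 of 11. Ssbp1, the mitochondrial single-strand DNA binding protein, averaged 818 ± 50.1 in WT and 1229 ± 154 in DKO (0.58 ± 0.20, limma adjusted p = 0.823). Polg2, the accessory subunit of the DNA polymerase, averaged 177 ± 69.5 and 313 ± 7.55 (0.90 ± 0.37, limma adjusted p = 0.823). Dguok, a kinase that supplies purine nucleotides, averaged 198 ± 17.1 and 157 ± 31.1.

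RNA processing and stability genes split evenly, 9 higher and 9 lower of 18. Slirp, which with Lrpprc stabilizes mitochondrial mRNAs, averaged 130 ± 15.9 in WT and 208 ± 1.98 in DKO (0.68 ± 0.29, limma adjusted p = 0.823). Hsd17b10, a subunit of the ribonuclease that cuts tRNA 5' ends, averaged 527 ± 13.0 and 408 ± 66.1, and Elac2, which cuts their 3' ends, 373 ± 34.8 and 289 ± 13.9. Of the 3 decay genes, Rexo2, which degrades short RNA pieces, averaged 1612 ± 418 and 1071 ± 208 (−0.57 ± 0.26), while Pnpt1 and Supv3l1 of the degradosome had values of 0.22 ± 0.20 and 0.09 ± 0.24.

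Genes of rRNA modification and ribosome assembly were higher in 8 and lower in 6 of 14, with Mtg1, an assembly GTPase, at 64.9 ± 16.4 in WT and 34.4 ± 3.99 in DKO. Mterf4, which acts with the methyltransferase Nsun4 on the large subunit, averaged 262 ± 47.0 and 201 ± 0.706, and Trmt61b, a methyltransferase, 76.8 ± 21.4 and 106 ± 12.2. Genes of tRNA charging and modification were higher in 14 and lower in 11 of 25, with Ears2, the glutamate tRNA synthetase, at 143 ± 58.3 and 237 ± 0.188 (0.80 ± 0.37). Gtpbp3, which modifies tRNA wobble bases, averaged 84.8 ± 3.93 and 51.1 ± 15.3, and Cars2, the cysteine tRNA synthetase, 103 ± 30.8 and 160 ± 65.5. Regulators of mitochondrial biogenesis were higher in 6 of 7, with the coactivator Ppargc1b at 117 ± 39.5 and 176 ± 22.9 (0.63 ± 0.36), and none passed.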

How the data were processed

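RNA of sorted germinal center B cells was amplified (NuGEN Ovation RNA-Seq System V2) and sequenced as 50-base paired reads, per the labels' protocols. Per the submitters' processing notes, the software was TopHat2 2.0.4, Cufflinks 2.0.2 and CASAVA 1.8.2, with mm9 as build. For the counting tool, annotation, use of strand and handling of multiply placed reads the sources used here give nothing. The deposited values are a normalized signal: in each library, whole reads per gene over a common divisor. Whole reads came back within 0.01 for 99.99% to 100.0% of values.

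The members and gene lists were chosen with earlier results of these data known. Genotypes were compared with limma 3.58.1 on log2(value + 1) with a mean-variance trend over genes with a mean of at least 10, with Benjamini-Hochberg adjustment over 13242 genes. Shares used recovered reads and an exact two-sided permutation test over libraries, with adjusted p = 1.0 for each of the 5 main shares and ratios. Alternatives included edgeR 4.0.16 and DESeq2 1.42.0 on recovered reads. The scripts were tested on simulated data. Gene lengths, strand, order, copies and sequences came from GENCODE M21 (GRCm38), used without coordinates because the files' build is mm9. Named were all rRNA and mRNA genes, the 6 tRNA genes with the highest mean, tRNA genes with an unadjusted p under 0.05 or non-overlapping genotypes, and up to 3 genes of each nuclear list with the smallest p. mt-Tr, mt-Td, mt-Tk, mt-Tg, mt-Tw and Lck are named outside this rule, after their values were seen. Of the germinal center B cell markers, 1 is not reported here and is left out of their sum.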

Additional observations from a re-analysis of the deposited data

How the results depend on the processing

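Under all 18 alternative fits 0 mitochondrial genes and 0 of the nuclear upkeep genes passed. Over all genes, limma called 0, DESeq2 29, and limma 0 to 1 when a library was left out (1 without WT replicate 2 and 1 without DKO replicate 1). With a replicate block it called 36. WT and DKO libraries of the same number correlated at 0.005 and −0.28. With 2 DKO libraries each value mirrors that for the other number, so they cannot decide whether shared numbers pair the libraries. The fold changes of the 24 mitochondrial genes followed kept their sign in 380 of 432 gene and alternative pairs and changed it in 52. Apart from the scaling to all reads and the value of mt-Rnr2 under quantile scaling, the cause was not tested. Scaling to all reads raised the median of all genes from 0.00 to 0.37, a shift common to all genes that by construction turns small negative values positive. Under it the log2 fold change was 0.299 for mt-Nd2, 0.339 for mt-Co3, 0.008 for mt-Nd3, 0.238 for mt-Nd5, 0.108 for mt-Nd6, 0.261 for mt-Tp, 0.209 for mt-Ty, 0.124 for mt-Ta and 0.013 for mt-Tc. Scaled to reads outside the mitochondrial genome it was 0.044 for mt-Co3. Quantile scaling gave 0.195 for mt-Co1, −0.151 for mt-Nd4l and −0.033 for mt-Tf, and TMM scaling −0.018 for mt-Nd4l and −0.015 for mt-Tf. The 0.0 for mt-Rnr2 under quantile scaling was fixed by construction, because that gene ranked first in every library. With the replicate block it was 0.022 for mt-Nd2, 0.146 for mt-Co3, −0.056 for mt-Nd4l, −0.103 for mt-Nd4 and −0.021 for mt-Tf. EdgeR gave −0.002 for mt-Nd4l and −0.009 for mt-Tf, and DESeq2 −0.007 for mt-Tf. Without WT replicate 2 and DKO replicate 1 together it was 0.068 for mt-Nd3, 0.19 for mt-Nd5, 0.116 for mt-Nd6, 0.324 for mt-Ty and 0.366 for mt-Tc. With single libraries left out it ran from −0.348 to 0.145 for mt-Nd2, −0.395 to 0.178 for mt-Co3, −0.805 to 0.082 for mt-Nd3, −0.134 to 0.141 for mt-Nd4l, −0.169 to 0.329 for mt-Nd4, −0.481 to 0.21 for mt-Nd5, −0.601 to 0.072 for mt-Nd6, −0.566 to 0.242 for mt-Ty, −0.352 to 0.366 for mt-Tf, −0.674 to 0.002 for mt-Ta and −0.773 to 0.064 for mt-Tc. The DKO minus WT difference in mRNA share was 0.4449 points as a share of mitochondrial reads, and that in tRNA share 0.002102 points without WT replicate 2 and DKO replicate 1. Where a fit leaves DKO with a single library, that library is assumed to vary like the others. With 3 and 2 libraries, exact tests cannot go below 0.1, and tRNA genes with few reads have wide errors.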
